A study of Mus musculus with 36 samples.

Results

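Retinoic acid, the active derivative of vitamin A, was followed through 9 of the genes that carry, make, hold, break down and sense it in the mouse heart: Rbp4, Stra6, Aldh1a1, Aldh1a2, Crabp1, Crabp2, Cyp26b1, Rara and Rarb. All rows of the expression table with these gene symbols were taken, and each symbol had exactly 1 probe set, a group of short probes that together read 1 transcript. The 9 probe sets stand among 45101 on the array, which represent 20701 gene IDs. Hearts of OF1 mice, an outbred strain with no engineered allele or treatment, were collected at 12 stages, 10 embryonic ones a day apart (E10.5 to E19.5) plus young and old adults, with 3 arrays per stage and 36 in all. Young adults were 10 weeks old. Old adults were 14 months old by the sample labels and 10 months by the methods. The 3 arrays of E10.5 and of E11.5 came from hearts of mixed sex, and those of every later stage came from females, males and a mixture of both, so that female and male arrays are unreplicated within a stage. The values are log2 intensities, in which a difference of 1 is a 2-fold change.

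Retinol travels in blood on the retinol-binding protein encoded by Rbp4 and can enter cells through the receptor Stra6. Dehydrogenases turn retinol into retinal, and the retinaldehyde dehydrogenases Aldh1a1 and Aldh1a2 oxidize retinal to retinoic acid. Inside the cell Crabp1 and Crabp2 bind the acid, and the cytochrome P450 enzymes of the Cyp26 family, here Cyp26b1, break it down. The nuclear receptors Rara and Rarb bind the acid and act on genes whose control regions carry its response element. In the embryonic heart the pathway is known for its part in patterning the inflow end and in the growth signals of the epicardium, the cell layer that covers the heart and in which Aldh1a2 is active.

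Several outlines emerged among the 9 profiles, seen in the plot of all arrays by stage. Aldh1a1 fell from E10.5 to E14.5 and was far higher in young adults, Aldh1a2 was higher at E10.5 and E19.5 than in young adults, and Rbp4 was near the low end of its range in all embryos and higher in young adults. Crabp1, Aldh1a2, Cyp26b1 and Crabp2 had their highest embryonic mean at E12.5. Rarb was highest at E10.5 and Rara and Stra6 had their lowest means at E10.5 or E11.5. Only Aldh1a1 and Rbp4, 2 of the 9 genes, had adult arrays that did not overlap the 30 embryonic arrays, against 10% of all probe sets.

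**Figure D1:**
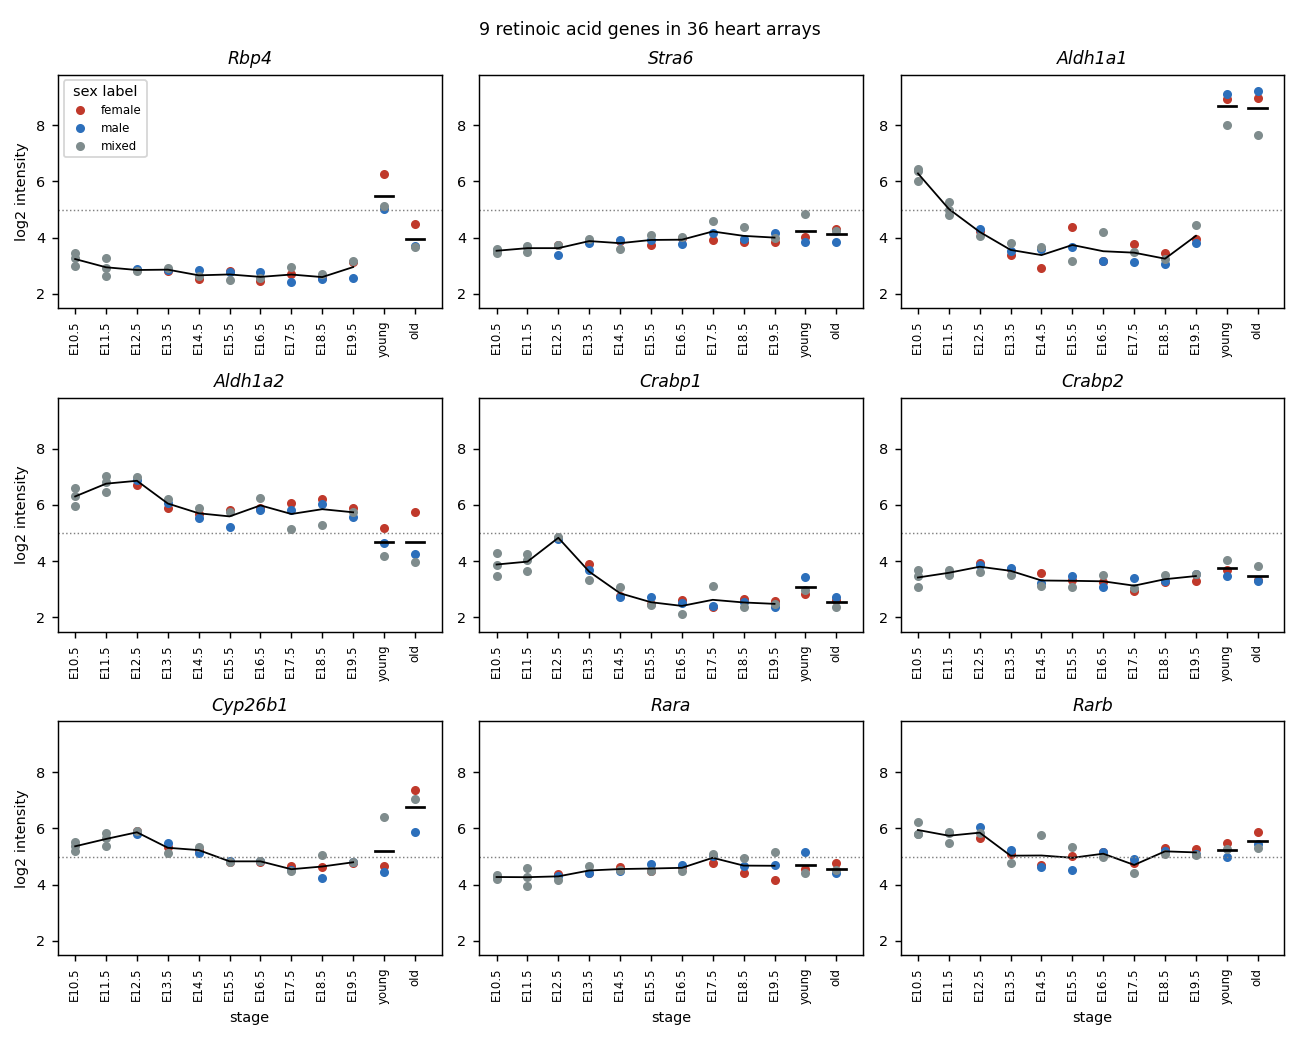
Log2 intensity (vertical axis, same scale in each panel) of the 9 genes in the 36 arrays over the 12 stages (horizontal axis), with points coloured by sex label, lines joining the embryonic stage means and bars marking the adult means. The dotted line marks the expression limit of 5. Aldh1a1 goes from a mean of 6.28 at E10.5 to 3.38 at E14.5 and 8.69 in young adults, while Rbp4 exceeds a mean of 5 in young adults only.

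The members lie on 6 chromosomes in the mouse assembly GRCm38.p6, and all are protein-coding. Aldh1a1 (chr19:20492583-20643463) and Rbp4 (chr19:38116620-38125321) share chromosome 19. Aldh1a2 (chr9:71215789-71296243), Crabp1 (chr9:54764748-54773110) and Stra6 (chr9:58063793-58154004) share chromosome 9. Crabp2 is at chr3:87948693-87953372, Cyp26b1 at chr6:84571414-84593908, Rara at chr11:98927800-98974942 and Rarb at chr14:16430839-17082331. RefSeq promoter windows were on hand for 8 of the 9 genes, and only the 250 bases before each start site were read.

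The element that retinoic acid receptors bind is classically a direct repeat of 6 bases with 5 bases between the copies, called DR5. A search on both strands for 2 copies of AGGTCA or AGTTCA or GGGTCA or GGTTCA, alike or mixed, in the same direction with 5 bases between them found a match in 29 of 32851 promoter windows of mouse genes (0.088%). Among the 16 windows of the members, 1 held it, that of Rarb, 53 to 37 bases before the start site. Of the 46 windows of other retinoid genes, 1 held it, that of Cyp26a1, 32 to 16 bases before the start. With 2 bases between the copies the repeat was in 57 of all windows (0.174%), and with 1 base in 54 (0.164%). None of the 16 member windows held either, and among the 46 others 1, that of Bco1, held the repeat with 1 base between the copies. The lack of a match says only that these letters are not in this window. These stretches are shown because Rarb and Cyp26a1 are known targets of the acid as well as parts of its pathway. They run 5′ to 3′ on the strand of the gene, from chr14:16575477-16575569 (minus strand) and chr19:37697736-37697807 (plus strand), with the repeat in capitals. In Cyp26a1 the repeat lies on the strand opposite to the gene, so that its copies of AGTTCA appear as TGAACT.
Rarb: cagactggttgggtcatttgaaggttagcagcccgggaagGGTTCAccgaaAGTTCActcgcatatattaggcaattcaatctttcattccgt
Cyp26a1: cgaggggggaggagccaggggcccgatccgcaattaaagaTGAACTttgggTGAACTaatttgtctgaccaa

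The windows of the 2 synthesizing enzymes differ in base composition. They are shown because Aldh1a1 and Aldh1a2 make the same product and differed in opposite directions between the embryo (E10.5 and E19.5) and young adults. The window of Aldh1a2 (chr9:71215539-71215788) is 77.6% G and C and holds 40 CpG dinucleotides, against a median of 52.4% and 6 over all windows. Aldh1a1 has a window at chr19:20601718-20601967 with 46.4% G and C and 1 CpG, and another, upstream, at chr19:20492333-20492582 with 42.8% and 3 CpGs. The sequences are on the plus strand, with CpGs in capitals, and the composition is a description that was not related to the profiles.
Aldh1a1: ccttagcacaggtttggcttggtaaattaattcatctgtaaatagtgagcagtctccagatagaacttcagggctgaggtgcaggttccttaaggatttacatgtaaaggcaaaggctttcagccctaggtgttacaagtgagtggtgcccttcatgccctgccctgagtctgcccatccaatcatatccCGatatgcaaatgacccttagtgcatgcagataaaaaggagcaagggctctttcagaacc
Aldh1a2: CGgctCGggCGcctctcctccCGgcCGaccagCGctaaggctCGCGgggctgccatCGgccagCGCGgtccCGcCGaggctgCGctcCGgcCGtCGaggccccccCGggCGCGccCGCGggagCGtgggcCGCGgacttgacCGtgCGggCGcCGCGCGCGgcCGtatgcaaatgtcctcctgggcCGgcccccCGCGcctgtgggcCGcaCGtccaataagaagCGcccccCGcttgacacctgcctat

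The 7 cardiomyocyte markers measured had stage means above 5 at every stage. The extraction protocol in the labels names liver, and the 7 liver markers measured averaged 3.16 to 3.84 over the stages, with the albumin gene Alb at most 4.54 on any array. Ahsg, the gene of the liver plasma protein fetuin-A, went higher than the rest of that list, reaching 5.33 in a young and 5.54 in an old adult array. The level of the hybridization control probes, RNAs added in equal amount to each array, rose from a stage mean of 9.90 at E10.5 to 12.2 in young adults. The rise was not steady, with 10.4 at E11.5 and 10.2 at E12.5, and the level was 11.4 in old adults. Whole hearts were measured, so that fewer cells of a type and less RNA per cell cannot be told apart. The median log2 difference of all probe sets between E10.5 and young adult was -0.19 as deposited and -0.71 after each array was centred on its median expressed probe set, so that the smaller differences below have a direction only relative to this scaling.

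Aldh1a1 encodes the retinaldehyde dehydrogenase found in many adult tissues. On E10.5 its 3 arrays read 6.38, 6.45 and 6.03, on E11.5 they read 5.27, 4.99 and 4.80, and E12.5 gave 4.22 (female), 4.33 (male) and 4.07 (mixed). The arrays of these 3 stages did not overlap. In the order female, male and mixed, they read 3.39, 3.52 and 3.80 at E13.5, 2.91, 3.58 and 3.65 at E14.5, 4.38, 3.66 and 3.19 at E15.5, and 3.19, 3.17 and 4.21 at E16.5. They continued with 3.78, 3.13 and 3.50 at E17.5, 3.46, 3.08 and 3.23 at E18.5, and 3.96, 3.80 and 4.45 at E19.5. From E13.5 to E19.5 the arrays of all stages overlapped those of their neighbours in the order of means. Young adults read 8.93, 9.12 and 8.01, and old adults 8.96, 9.20 and 7.65. Every adult array was above every embryonic one, and within each adult stage the mixed array was lowest.

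From E10.5 to E14.5 Aldh1a1 fell by 2.90 ± 0.33 on the log2 scale (difference ± SE, n = 3 arrays a stage), which is 7.47-fold (limma, adjusted p = 1.2e-07). The stage mean was 3.57 by E13.5, and the first day alone, E10.5 to E11.5, carried a drop of 1.26 ± 0.33 (adjusted p = 0.033). The call for this day was lost without array 1 or 2 of E10.5 or array 2 or 3 of E11.5, numbered in the order of the values above. For E19.5 against young adult the difference was -4.62 ± 0.33, or 24.6-fold (adjusted p = 1.6e-12). It was -2.40 ± 0.33, or 5.29-fold, for E10.5 against young adult (adjusted p = 2.6e-07). Under 13 alternative settings each, these differences stayed between -4.96 and -4.40 and between -3.13 and -2.18 and passed the test. Old and young adults differed by -0.09 ± 0.33 (adjusted p = 0.91). The closely related Aldh1a7, which has a probe set of its own, had stage means of 2.12 to 2.83, and whether its transcript also binds the Aldh1a1 probes cannot be read from these values.

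Aldh1a2 encodes the main retinoic acid-making enzyme of the early embryo. Arrays of E10.5 read 5.98, 6.32 and 6.61, and those of E11.5 read 6.81, 7.01 and 6.44. Female, male and mixed arrays then read 6.70, 6.88 and 6.99 at E12.5, 5.88, 6.06 and 6.21 at E13.5, 5.68, 5.54 and 5.88 at E14.5, and 5.82, 5.22 and 5.74 at E15.5. The 3 arrays of E12.5 lay above all arrays of E13.5 and later. Later values were 5.88, 5.81 and 6.25 at E16.5, 6.07, 5.82 and 5.14 at E17.5, 6.21, 6.05 and 5.29 at E18.5, and 5.89, 5.57 and 5.76 at E19.5. Young adults read 5.18, 4.65 and 4.18, and old adults 5.76, 4.27 and 3.98, with the female array highest in both. Both female arrays reached into the embryonic range, whose lowest array read 5.14, and the other 4 adult arrays lay below it.

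Aldh1a2 was higher at E10.5 than in young adults by 1.63 ± 0.31, or 3.10-fold (adjusted p = 4.5e-05). It was higher at E19.5 than in young adults by 1.07 ± 0.31, or 2.10-fold (adjusted p = 0.0088). The second difference did not pass without the mixed young adult array, at 0.82 (adjusted p = 0.074). With the level of the hybridization controls as a covariate neither passed, at 0.61 for each (adjusted p = 0.51 and 0.22). Over the 10 embryonic stages its level changed (moderated F test of limma, adjusted p = 0.0044), with stage means between 6.86 at E12.5 and 5.59 at E15.5. The mean level of 7 markers of epicardium and mesothelium, among them Wt1, Tbx18 and Upk3b, was 5.99 at E10.5, 5.94 at E12.5, 5.01 at E15.5 and 4.70 in young adults. In old adults this list read 6.01 in the female array, where Aldh1a2 was 5.76, against 4.78 and 4.91 in the male and mixed arrays. Its members did not all follow: Wt1 was lowest in the old female array (4.80, against 5.69 in the male and 6.39 in the mixed array), and Krt19 was higher in the mixed (6.03) than in the female array (5.51). The old female array also stood apart in the atrial myosin gene Myl7, at 12.7 against 9.46 and 9.53. The part of these cells or of atrial tissue in the result was not tested.

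Rbp4 encodes the blood carrier of retinol, made mainly by the liver and also by fat. Its 30 embryonic arrays lay between 2.44 and 3.47 with a median of 2.81. They read 3.26, 3.47 and 2.99 on E10.5, 3.29, 2.92 and 2.63 on E11.5, and 2.86, 2.87 and 2.82 on E12.5. From E13.5 on, female, male and mixed arrays read 2.82, 2.85 and 2.93, then 2.52, 2.84 and 2.63, then 2.80, 2.78 and 2.50, and at E16.5 2.46, 2.80 and 2.56. The last 3 days gave 2.70, 2.44 and 2.94, then 2.56, 2.52 and 2.72, then 3.13, 2.57 and 3.17. Over the embryonic stages no change passed (moderated F test, adjusted p = 0.28), though it did when only the 30 embryonic arrays were fitted. E14.5 and E10.5 differed by -0.58 ± 0.23 (limma, adjusted p = 0.067), which passed in 4 of 13 alternatives. Young adults read 6.27, 5.02 and 5.14 and old adults 4.48, 3.72 and 3.68, without overlap between the adult stages or with the embryos.

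Rbp4 was lower at E10.5 than in young adults by a log2 difference of -2.23 ± 0.23, or 4.71-fold (adjusted p = 1.5e-09), and lower at E19.5 by -2.52 ± 0.23, or 5.74-fold (adjusted p = 6.2e-10). It was lower in old than in young adults by -1.52 ± 0.23, or 2.86-fold (adjusted p = 0.00018). When the model held only the 6 adult arrays, this last difference did not pass (adjusted p = 0.13). The 6 adipocyte markers measured averaged 6.52, 4.89 and 5.89 in the female, male and mixed young adult arrays and 6.01, 4.24 and 5.08 in the old ones, against stage means of 3.46 to 3.81 in the embryo. Among them Cfd, the fat cell protease adipsin, read 9.19 and 7.92 in the young and old female arrays, and Lep, the fat hormone leptin, at most 3.03 in any adult array. The part of fat in the Rbp4 result was not tested. Liver markers averaged 3.84 in young and 3.68 in old adults. Of these, Ahsg read 5.33, 4.83 and 4.94 in the female, male and mixed young adult arrays and 5.54, 4.74 and 3.89 in the old ones, against 3.05 to 3.38 at E12.5. The part of liver RNA in the Rbp4 result was not tested either.

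Among adults, Aldh1a1 was highest in the old and young male arrays (9.20 and 9.12), in which the adipocyte list read 4.24 and 4.89. The part of fat in the adult Aldh1a1 level was not tested.

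**Figure D2:**
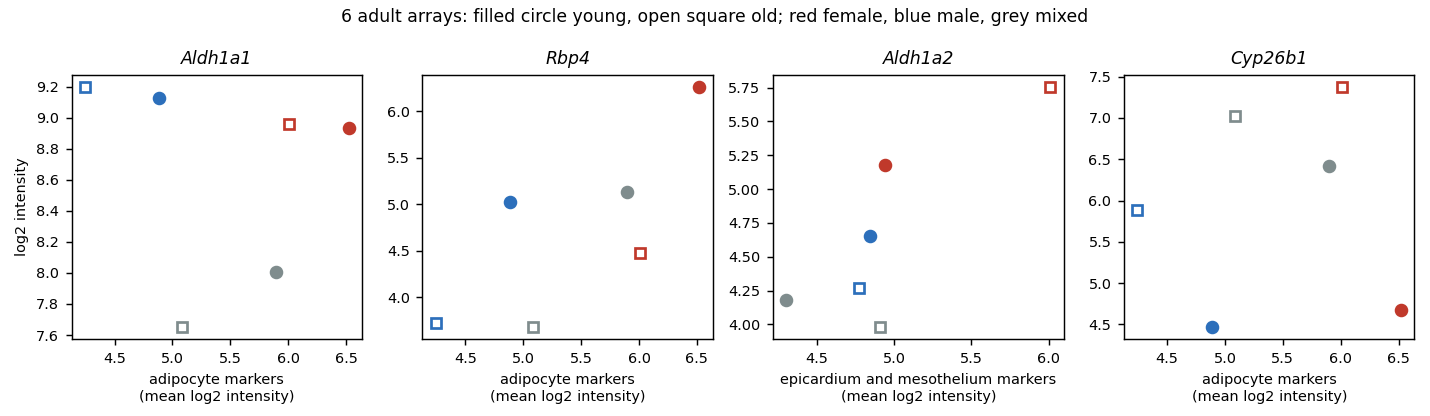
Log2 intensity of Aldh1a1, Rbp4, Aldh1a2 and Cyp26b1 (vertical axes, a scale of its own in each panel) in the 6 adult arrays against the mean log2 intensity of the adipocyte or epicardium and mesothelium markers (horizontal axes). Rbp4 and the adipocyte list were both highest in the young adult female array (6.27 and 6.52), and Aldh1a2 and the epicardial list in the old adult female array (5.76 and 6.01). The order of the other arrays differed: Rbp4 was 4.48 in the old adult female array (adipocyte list 6.01) and 5.02 in the young adult male array (4.89).

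Crabp1 and Crabp2 encode the small proteins that hold retinoic acid in the cytoplasm, Crabp2 handing it to the nuclear receptors. Neither had a stage mean above 5, the expression limit of the study, so that their values lie in the range in which intensity follows abundance least. Crabp1 lay between 2.12 and 4.87 over all arrays with a median of 2.74. At E12.5 its 3 arrays read 4.84, 4.79 and 4.87, above every array of every other stage. It fell from E12.5 to E13.5 by 1.20 ± 0.20 (adjusted p = 0.0028) and was higher at E10.5 than at E19.5 by 1.40 ± 0.20, or 2.64-fold (adjusted p = 1.9e-06). Against young adults Crabp1 was higher at E10.5 by 0.80 ± 0.20 (limma, adjusted p = 0.0013). That call was lost after median centring (0.27, adjusted p = 0.24) and with the hybridization covariate (0.69, adjusted p = 0.23), and 10 of 12 alternatives passed. At E19.5 it was lower than in young adults by -0.60 ± 0.20 (adjusted p = 0.025), which did not pass without the young adult male (0.17), the E19.5 male (0.082) or the E19.5 mixed array (0.053). The call was also lost after quantile normalization (0.052), with only the groups compared in the fit (0.059) and with the hybridization covariate (0.052), so that 6 of 12 alternatives passed. Crabp2 lay between 2.94 and 4.06, and its stage means spanned 0.67, less than the median span of 0.83 over all probe sets. Its change over the embryonic stages had an adjusted p of 0.0505, and at E10.5 it was 0.33 ± 0.18 below young adults (adjusted p = 0.10). This difference had an adjusted p of 0.038 and 0.043 without array 3 of E10.5 (numbered in the order of the values) or without the young adult male array. After median centring it was -0.85 (adjusted p = 0.00041), so that 3 of 12 alternatives passed.

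Cyp26b1 encodes an enzyme that clears retinoic acid. Its arrays read 5.50, 5.38 and 5.20 on E10.5, then 5.66, 5.84 and 5.36 on E11.5, then 5.89 (female), 5.80 (male) and 5.90 (mixed) at E12.5. In the same order it read 5.33, 5.47 and 5.14 at E13.5, 5.22, 5.13 and 5.34 at E14.5, 4.82, 4.86 and 4.81 at E15.5, and 4.81, 4.83 and 4.84 at E16.5. Stage means went from 5.86 at E12.5 down to 4.55 at E17.5, and the change over the embryonic stages passed the test (adjusted p = 0.0057). It continued with 4.65, 4.51 and 4.48 at E17.5, 4.63, 4.23 and 5.07 at E18.5 and 4.79, 4.80 and 4.80 at E19.5. Young adults read 4.68, 4.46 and 6.42, and old adults 7.38, 5.88 and 7.03. The young adult mixed array stood well above the other young ones and above the old adult male array, so the adult stages overlapped.

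Cyp26b1 was higher in old than in young adults by 1.58 ± 0.31, or 2.98-fold (adjusted p = 0.0020). The difference was 2.19 without the young adult mixed array and 1.21 without the young adult male array, and passed in both (adjusted p = 4.1e-06 and 0.026). In a model of the 6 adult arrays alone it did not pass (adjusted p = 0.22). From young to old adults the mean of the endothelial list went from 6.91 to 7.63 (7.29, 7.53 and 8.06 in the old female, male and mixed arrays), that of the epicardial list from 4.70 to 5.23, and that of the adipocyte list from 5.77 to 5.11. In the young adult mixed array these lists read 6.82, 4.30 and 5.89. Their part in the Cyp26b1 result was not tested. E10.5 and young adult differed by 0.18 ± 0.31 (adjusted p = 0.63), and by 0.79 without the young adult mixed array (adjusted p = 0.0076).

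Rarb encodes the receptor whose promoter holds the DR5 match shown above. On E10.5 it read 5.78, 6.24 and 5.80, on E11.5 it read 5.85, 5.48 and 5.89, and then 5.65, 6.05 and 5.85 in the female, male and mixed arrays of E12.5. Later days read 5.08, 5.23 and 4.78 at E13.5, 4.70, 4.64 and 5.77 at E14.5, 5.01, 4.53 and 5.32 at E15.5, and 5.18, 5.15 and 4.97 at E16.5. All arrays of the first 3 days lay above those of E13.5. Then followed 4.77, 4.90 and 4.43 at E17.5, 5.29, 5.18 and 5.07 at E18.5, and 5.28, 5.11 and 5.05 at E19.5. Young adults read 5.48, 4.99 and 5.26, and old adults 5.88, 5.43 and 5.29. From E10.5 to E14.5 Rarb fell by 0.91 ± 0.23 (adjusted p = 0.0030), and it was higher at E10.5 than at E19.5 by 0.80 ± 0.23, or 1.74-fold (adjusted p = 0.0051). With the hybridization control level as a covariate these differences were -0.42 and 0.21 (adjusted p = 0.36 and 0.70), and the first was also lost when only the groups compared were fitted (adjusted p = 0.054).

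Against young adults, Rarb was higher at E10.5 by 0.70 ± 0.23 (adjusted p = 0.0090). This did not pass without array 2 of E10.5 (0.55, adjusted p = 0.064) or the young adult male array (0.57, adjusted p = 0.054), nor after quantile normalization (0.34, adjusted p = 0.19) or median centring (0.17, adjusted p = 0.43). With the hybridization control level as a covariate it turned to -0.37 (adjusted p = 0.57).

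Rara and Stra6 stayed below a mean of 5 and varied little. Rara lay between 3.94 and 5.16 over all arrays with a median of 4.51, and Stra6 between 3.40 and 4.86 with a median of 3.88. Both were lower at E10.5 than in young adults, Rara by -0.44 ± 0.19 (adjusted p = 0.049) and Stra6 by -0.70 ± 0.19 (adjusted p = 0.0026). The Rara call was lost without any 1 of the 3 E10.5 arrays (adjusted p = 0.071, 0.086 and 0.11) or without the young adult male array (0.36), and the sign turned with the hybridization covariate (0.42, adjusted p = 0.42). It was also lost after quantile normalization (adjusted p = 0.058), with trend and robust variance (0.054) and with only the groups compared in the fit (0.093). For Rara, 4 of 12 alternatives thus passed. The Stra6 call was lost with that covariate (-0.16, adjusted p = 0.82) and without the young adult mixed array (adjusted p = 0.062), which read 4.86 against 3.85 and 4.01 in the male and female arrays. Stra6 was also lower at E10.5 than at E19.5 by -0.47 ± 0.19 (adjusted p = 0.049), a call lost without any 1 E10.5 array (adjusted p = 0.12, 0.096 and 0.064) or without the male (0.16) or mixed (0.093) E19.5 array. Quantile normalization (0.28), trend and robust variance (0.051) and the hybridization covariate (0.76) lost it too, so that 4 of 12 alternatives passed. For Rara the difference between E10.5 and E19.5 was -0.40 ± 0.19 (adjusted p = 0.089). It was -0.66 (adjusted p = 0.0069) without the female E19.5 array and -0.74 (adjusted p = 0.0071) after median centring.

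Counted together, 7 of the 9 genes passed an adjusted p of 0.05 between E10.5 and young adult. Aldh1a2, Crabp1 and Rarb were higher at E10.5, against 27.1% of all probe sets, and Aldh1a1, Rbp4, Rara and Stra6 were lower, against 35.9%. With shares this large in the background, the count alone says little about these genes. The median log2 difference of the 9 was -0.33, and that of all probe sets -0.19. After median centring 1 gene was higher (Aldh1a2) and 5 were lower, and of all 45101 probe sets 7412 were higher and 28776 lower. Under the limits of the study for a differentially expressed gene (DEG: adjusted p under 1e-05, log2 difference beyond 2, and expression, a stage mean over 5, somewhere), Aldh1a1 and Rbp4 were called, 2 of 9 against 6.53% of all probe sets.

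Set against young adults, E19.5 hearts had 4 calls. Aldh1a2 was higher at E19.5 (15.5% of all probe sets) and Aldh1a1, Rbp4 and Crabp1 were lower (13.6%). Aldh1a1 and Rbp4 were again DEGs, against 1.45% of all probe sets. Both comparisons share the young adult arrays, and their values therefore stand side by side only. Between E10.5 and E19.5, Aldh1a1, Crabp1 and Rarb were higher at E10.5 (21.8%) and Stra6 was lower (23.7%), with Aldh1a1 the only DEG (2.18%). Quantile normalization left 3 higher and 0 lower (8298 and 8039 of all 45101 probe sets), and median centring 3 higher and 2 lower (6577 and 25087).

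**Figure D3:**
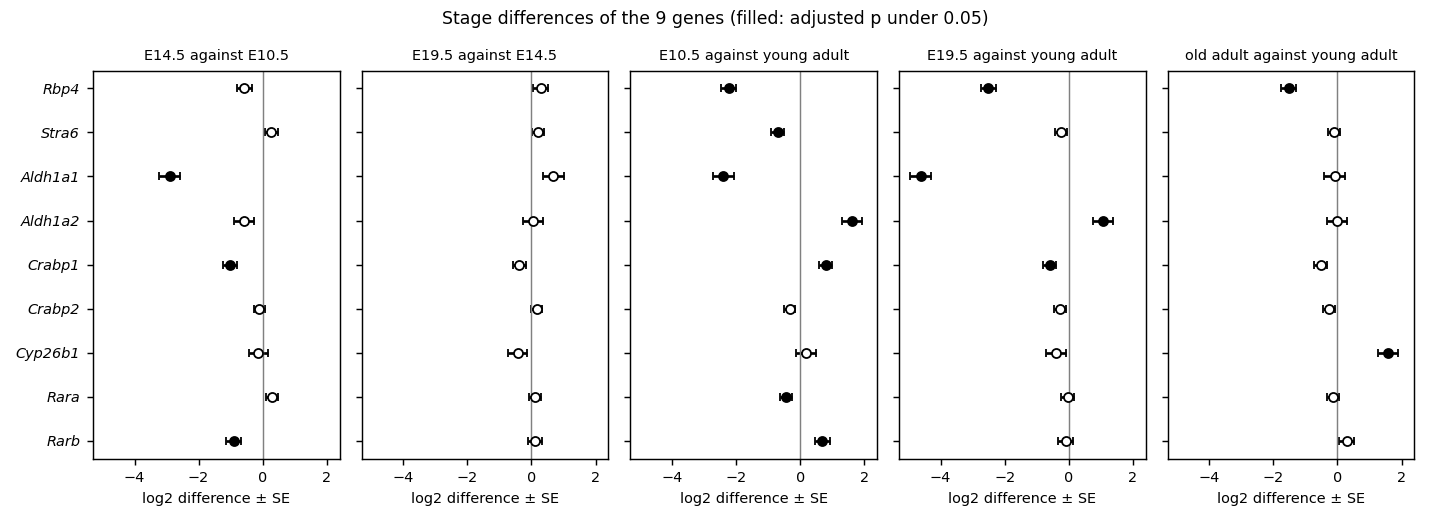
Log2 differences (horizontal axes, the stage named first minus the one named second, bars ± 1 SE) of the 9 genes in 5 stage comparisons, with filled points where the adjusted p is under 0.05. The widest is Aldh1a1 at E19.5 against young adult (-4.62), no point is filled for E19.5 against E14.5, and in old against young adult only Rbp4 (-1.52) and Cyp26b1 (1.58) are filled.

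Within the embryo 2 intervals were compared. From E10.5 to E14.5, Aldh1a1, Crabp1 and Rarb fell, against 15.2% of all probe sets, and 0 of the 9 rose, against 11.1%. From E14.5 to E19.5 limma called 0 of the 9 in either direction, against 5.1% higher and 8.46% lower in all probe sets, and 1 had an unadjusted p under 0.05. That was Aldh1a1, higher by 0.68 ± 0.33 at E19.5 (adjusted p = 0.18). Cyp26b1 had a difference of -0.14 over the first interval and -0.43 over the second, neither of which passed. The test for any change over the 10 embryonic stages passed for Aldh1a1, Aldh1a2, Crabp1, Cyp26b1 and Rarb, 5 of 9 against 45.9% of all probe sets.

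Of the 9 daily steps, E11.5 against E10.5 held 1 call among the members, Aldh1a1 (2.53% of all probe sets), and E13.5 against E12.5 held 1, Crabp1 (1.25%). The Aldh1a1 call was lost without array 1 or 2 of E10.5 or array 2 or 3 of E11.5, which left 1 call in all. The other steps held 0. The shares of all probe sets there were 0.0976% for E12.5 against E11.5, 0.0599% for E14.5 against E13.5, 0.0377% for E15.5 against E14.5 and 0.0111% for E16.5 against E15.5. They were 0.0133% for E17.5 against E16.5, 0% for E18.5 against E17.5 and 1.33% for E19.5 against E18.5. At an unadjusted p under 0.05 these 7 steps held 5 member values in all.

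In old against young adults, Cyp26b1 was higher (3.83% of all probe sets) and Rbp4 lower (3.13%). Aldh1a1, Aldh1a2, Crabp1, Crabp2, Rara, Rarb and Stra6 did not pass, with differences from -0.52 for Crabp1 to 0.29 for Rarb. Male and female hearts, 9 arrays each from E13.5 to old adult compared within stages, gave 0 calls among the 9 in limma (0.0488% of all probe sets). Aldh1a2 had an unadjusted p under 0.05 at a male minus female difference of -0.38 ± 0.13, lower in males in 8 of 9 stages, and an adjusted p of 0.56.

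Other genes of the pathway were counted from a list of 51, of which 49 were found on the array. Between E10.5 and young adult 12 of the 49 were higher at E10.5 and 23 lower, against 27.1% and 35.9% of all probe sets. Their median was -0.30 against -0.19. After median centring 9 were higher and 37 lower, and of all 45101 probe sets 7412 were higher and 28776 lower. For E19.5 against young adult, 9 were higher and 12 lower (15.5% and 13.6% of all probe sets). For E10.5 against E19.5, 7 were higher and 19 lower (21.8% and 23.7% of all probe sets). After centring 5 genes were higher and 36 lower there, and 6577 and 25087 of all probe sets. From E10.5 to E14.5, 7 rose and 3 fell (11.1% and 15.2% of all probe sets). After median centring 16 rose and 2 fell (9697 and 4995 of all probe sets). After quantile normalization 9 rose and 2 fell (4860 and 5571 of all probe sets). From E14.5 to E19.5, 5 rose and 6 fell (5.1% and 8.46% of all probe sets). After centring 7 rose and 3 fell (3551 and 2554 of all probe sets), and after quantile normalization 7 and 5 (2732 and 3257). Over the embryonic stages 24 of 49 changed, against 45.9% of all probe sets. In old against young adults 1 was higher and 2 lower (3.83% and 3.13% of all probe sets), and between male and female hearts 0 passed in limma (0.0488%). The counts by role that follow are for E10.5 against young adult and are to be read against the 27.1% and 35.9%, near which several of them lie.

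Among 9 genes of uptake and storage, 0 were higher at E10.5 than in young adults and 5 were lower. Rbp7, a cellular retinol-binding protein of endothelium and fat, began at a mean of 2.76 on E10.5, reached 6.57 on E19.5 and lay between 8.55 and 9.68 in the young adult arrays and between 9.44 and 10.4 in the old ones. Its difference between E10.5 and young adult was -6.24 ± 0.37 (adjusted p = 2.7e-15). The endothelial list averaged 5.75 on E10.5, 6.24 on E19.5, and in adults 6.91 (young) and 7.63 (old), and its part in the Rbp7 result was not tested.

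Of 13 genes that interconvert retinol and retinal, 4 were higher at E10.5 than in young adults and 6 were lower. Adh1, an alcohol dehydrogenase that oxidizes retinol, read 2.90 on E10.5 and 4.47 on E19.5 but 8.45 in young adults, a difference of -5.55 ± 0.26 for E10.5 against young adult (adjusted p = 1.7e-17). Rdh11, a retinal reductase, went the other way, from 6.10 (E10.5) through 4.11 (E19.5) to 3.48 (young adult) (2.63 ± 0.32, adjusted p = 2.9e-08), and its other probe set moved in the same direction (0.95).

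The 3 other aldehyde dehydrogenases of the list had 2 lower at E10.5 than in young adults. Aldh1a3, which also makes retinoic acid, differed by -1.10 ± 0.23 (adjusted p = 0.00014) with its other 2 probe sets in the same direction, and it was lower in old than in young adults by -0.80 ± 0.23 (adjusted p = 0.030), where these 2 did not pass (-0.21 and -0.14). Aldh1a7 differed by -0.41 ± 0.15 (adjusted p = 0.018). Fabp5, a fatty acid-binding protein that can also carry retinoic acid, was 1.34 ± 0.31 higher at E10.5 than in young adults (adjusted p = 0.00042). Cyp26a1, the relative of Cyp26b1 whose promoter stretch is shown above, had its lowest mean on E10.5 (3.01) and its highest on E19.5 (4.42), both below the expression limit, and was lower at E10.5 than at E19.5 by -1.40 ± 0.26 (adjusted p = 6.5e-05).

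Of the 4 other receptors, 0 were higher at E10.5 than in young adults and 3 were lower. Rarg, the remaining retinoic acid receptor, had means of 4.70 (E10.5), 5.48 (E19.5) and 6.30 (young adult) (difference of E10.5 against young adult -1.60 ± 0.16, adjusted p = 9.7e-10). Rxrg, a partner receptor, read 3.73 at E10.5 and 5.13 in young adults (-1.40 ± 0.20, adjusted p = 8.1e-07). Of 6 coregulators, 3 were higher at E10.5 and 1 lower. The coactivator Ncoa2 was 1.77 ± 0.21 higher (adjusted p = 1.2e-08), with 3 of its 4 probe sets passing in that direction. The corepressor Nrip1 was 1.20 ± 0.23 higher (adjusted p = 3.9e-05) by its leading probe set, but another of its probe sets was lower by -1.06 (adjusted p = 3.0e-05), so its direction is not settled.

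Of 12 genes known to respond to retinoic acid, 4 were higher at E10.5 than in young adults and 5 were lower. The homeobox gene Meis2 had means of 9.16 (E10.5), 9.79 (E12.5), 7.83 (E19.5) and 6.16 (young adult) (3.01 ± 0.23, adjusted p = 2.4e-12), and its 4 probe sets moved the same way. Rarres2, which encodes the secreted protein chemerin, read 5.25 at E10.5 and 8.28 in young adults (-3.03 ± 0.22, adjusted p = 6.0e-13). The list thus moved in both directions.

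**Figure D4:**
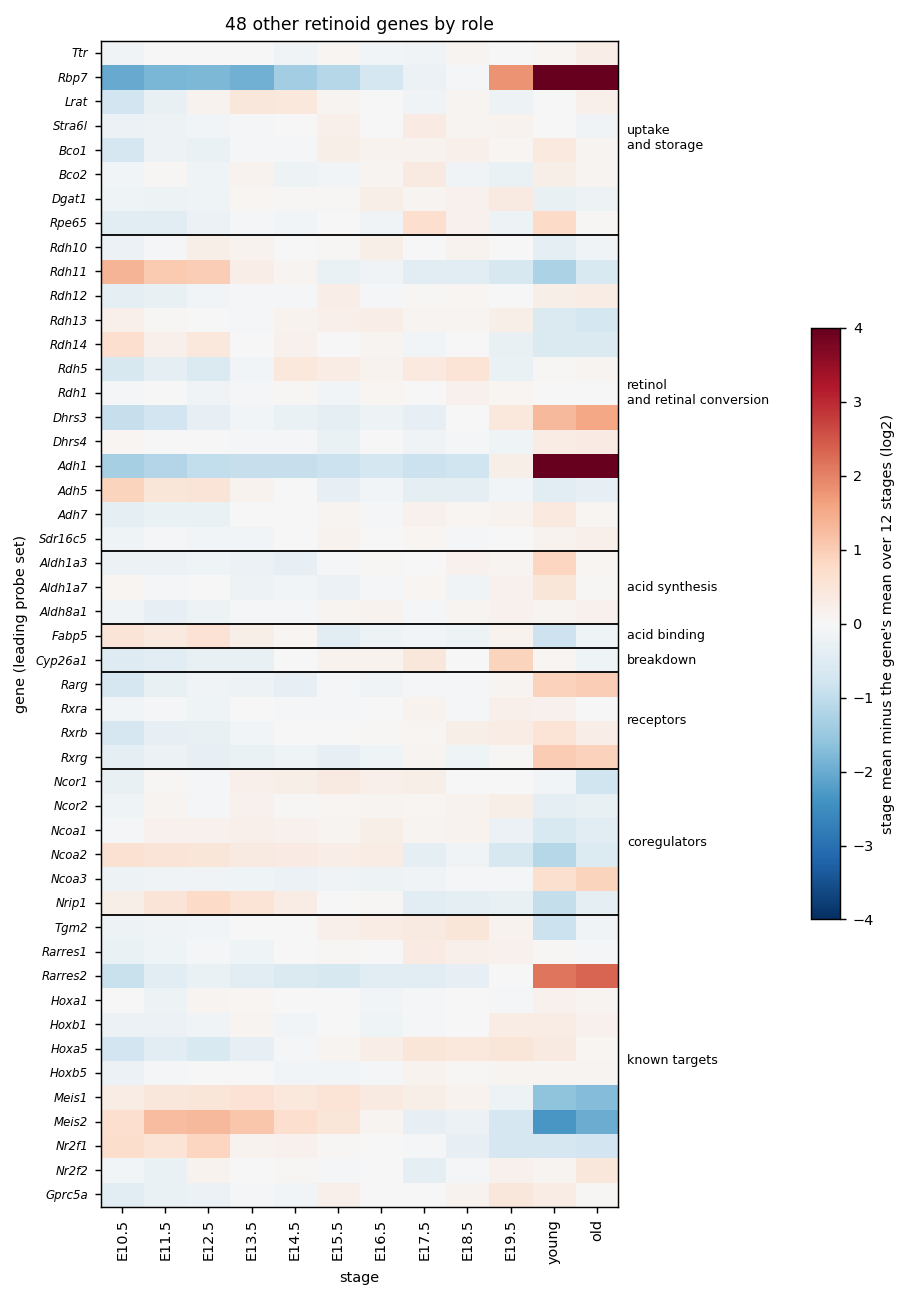
Stage means of 48 of the 49 other retinoid genes (rows, grouped by role) at the 12 stages (columns), each shown as the difference in log2 intensity from the mean of that gene over the stages, with colours ending at 4 and -4. Rbp7, Adh1 and Rarres2 are highest in adults, and Meis2 and Rdh11 lowest in young adults.

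The profiles most like those of the 5 members with a mean above 5 in at least 1 stage were found by Pearson r over all 36 arrays among 18448 named and expressed probe sets. They are descriptions, and the arrays share their stages. For Aldh1a1 they were Art1 (0.96), Tsc22d3 (0.95) and Amd1 (0.94). For Aldh1a2 they were Bmpr1a (0.91), Cdh11 (0.89) and Tbx18 (0.89), of which Tbx18 is in the epicardial list used above. For Rbp4 they were Prodh (0.92), Ano10 (0.91) and Adipoq (0.91), of which Adipoq, the fat hormone adiponectin, is in the adipocyte list. For Cyp26b1 they were Lcp1 (0.80), Ythdf1 (0.78) and Lipa (0.78), and for Rarb Mapkap1 (0.89), Lix1l (0.88) and Fbxw11 (0.88).

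Among the members themselves, the relation of the 2 synthesizing enzymes depended on the stages taken. Over the 36 arrays r between Aldh1a1 and Aldh1a2 was -0.46, and over the 30 embryonic arrays it was 0.50. Crabp1 and Cyp26b1 were the closest pair over the embryonic arrays, at 0.87, and Aldh1a1 and Rbp4 over all 36, at 0.86.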

How the data were processed

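Hearts of OF1 mice at 12 stages were measured on 36 Affymetrix mouse whole-genome arrays, a 1-colour platform, 3 for each stage. The deposited values are log2 intensities that the authors made by robust multi-array average (RMA: background subtraction, quantile normalization and summary per probe set) on R/Bioconductor, and the submitters' processing notes also name Affymetrix Expression Console and Partek 6.6. They were used as deposited. The precision is limited by the number of arrays. By the methods the 3 arrays of a stage came from separate pups, the mixed one from hearts of both sexes. In the stage comparisons the p values rest on 1 spread per probe set, pooled over all 12 stages, not on that of the stages compared. The standard deviation of Cyp26b1 was 1.07 in young and 0.78 in old adults, against a pooled 0.42. That of Rbp4 was 0.69 and 0.45, against 0.31. RNA was taken from heart with miRNeasy kits by the methods, while the labels' protocol names liver and another kit. Sample titles begin differently before and after the female array of E16.5, and whether this marks a batch is not stated.

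A single linear model (limma 3.58.1, R 4.3.3) holding a mean for each of the 12 stages was fitted to all 36 arrays and 45101 probe sets (prior degrees of freedom 6.96), with Benjamini-Hochberg adjustment over all probe sets in each comparison. Male and female arrays from E13.5 on were compared with stage as a block. A gene passed at an adjusted p under 0.05. Where a gene of the wider list has several probe sets, the one with the highest mean stands for it. The members, lists and tests were chosen with earlier results of these data known. All 9 members are described, those with a stage mean above 5 array by array. From the wider list at most 2 genes per role, those with the widest range of stage means, are given values, and 1 gene of that list, which enters its counts, is not reported here. For each expressed member the 3 genes with the highest r are named. The procedures were tested on simulated data. Marker lists came from general knowledge: cardiomyocyte, epicardium and mesothelium, adipocyte, liver, endothelium, fibroblast (8.39 in old adults to 9.18 at E18.5 after E13.5, and 6.51 at E10.5), lung and foregut (3.34 to 3.91 over the stages) and nerve and neural crest (3.93 to 4.50). Promoter windows came from RefSeq, assembly GRCm38.p6, and the window of Crabp2 was not analysed here, nor were Myh6, Plin1 and Serpina1a of the marker lists.

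Alternatives concerned quantile normalization, median centring, filtering before the fit, trend and robust variance, the arrays in the fit, replicate blocks, the hybridization control level and leaving out each array.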

Additional observations from a re-analysis of the deposited data

How the results depend on the processing

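Of 890 alternative values of single members, 624 passed neither in the reported fit nor under the alternative, 214 kept their call, 37 lost it, 13 gained one and 2 changed the sign of a called value. These 2 are for E10.5 against young adult with the level of the hybridization controls as a covariate, Rara at 0.42 and Rarb at -0.37. Another 69 changed sign where neither value passed the test. That covariate was higher in young adults than at E10.5, but it did not rise at every step and was lower in old than in young adults. With it 2 members passed for E10.5 against young adult in place of 7. For E19.5 against young adult and for E10.5 against E19.5, 2 passed in place of 4 in each. In the daily steps 1 passed in place of 2, and in the test over the embryonic stages 2 in place of 5. Filtering before the fit left 4 and 2 members for E10.5 against young adult and against E19.5, since Crabp1, Crabp2, Rara and Stra6 are then not tested. Fitting only the groups compared gave 0 for old against young adult in place of 2, and 9 for the test over the 30 embryonic arrays. The share of all probe sets was not taken for these counts under the covariate, the filter or the fits of fewer groups. They are thus not read as a result about the members. Quantile normalization left 1 daily step. The cause was not tested for the covariate, the fits of fewer groups or quantile normalization. Leaving out 1 array gave 5 to 7 members for E10.5 against young adult, 3 to 4 for E19.5 against young adult, 3 to 5 for E10.5 against E19.5, 3 to 4 for E14.5 against E10.5, 5 to 7 over the embryonic stages, 1 to 3 for the daily steps and 2 in each case for old against young adult. Where that leaves 2 arrays in a stage, their spread is taken to be like that of the other stages.

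With the sex label as a replicate block, 7, 4, 4, 3, 0 and 2 members passed in the 6 stage comparisons, as without it, and 6 over the embryonic stages. Arrays with the same number at E10.5 and E11.5 did not deviate together (r = 0.14, -0.21 and 0.12), and with that number as a replicate block on the 6 arrays 126 probe sets passed between these days, against 205 without it. Each member has 1 probe set, so the mean over the probe sets of a gene gives the same values. Intensities below 5 lie close to background, which limits Crabp1, Crabp2, Rara and Stra6 in all stages and Rbp4 in all but young adults. The stage means of Aldh1a1 from E12.5 to E19.5 and of Cyp26b1 from E15.5 to E19.5 were also below 5. So were those of Aldh1a2 in young and old adults (4.67 in each) and of Rarb at E15.5 (4.95) and E17.5 (4.70).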
